A study of Mus musculus with 3 samples.

Results

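The genes described here encode activators of the small GTPase Ras, Ras proteins themselves and the GTPase-activating proteins that switch them off. They are 9 of 55536 annotated genes in the tables: the exchange factors Rasgrp1 and Sos1, the Ras genes Hras and Nras, and the GTPase-activating protein genes Rasa1, Rasa2, Rasa3, Rasal3 and Nf1. They were picked by name, each matched by its GENCODE M21 symbol to 1 gene and to its transcripts, and all 9 were found. The RNA was polyA-selected and came from effector memory CD4 T cells, helper T cells that have met antigen and can respond quickly when they meet it again. The labels describe primary cells of a male adult mouse aged 5 months from the congenic line B6.SJL-Ptprca Pepcb/BoyJ, which carries the Ptprca and Pepcb alleles, and they list no treatment. The 3 libraries are labelled technical replicates 1, 2 and 3 of 1 biosample, so there is 1 group, no condition was compared, and every SD or p-value below measures the spread between these libraries, which may be technical. The sources used here do not say how the cells were sorted.

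Ras cycles between an inactive form bound to GDP and an active form bound to GTP. Exchange factors load it with GTP, and GTPase-activating proteins speed up the hydrolysis that returns it to the GDP form. In T cells, RasGRP1 is recruited to membranes by the diacylglycerol made after antigen receptor triggering, while SOS proteins arrive through adaptor complexes at LAT and are further activated by Ras-GTP, and active Ras then engages Raf kinases and the ERK cascade.

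For 4 of the 9 genes a pair of annotated transcripts was chosen in which the first holds a short coding stretch that the second lacks. The transcripts of a pair may also differ elsewhere. The shares of these forms are described with the levels further on. Other transcripts of the 9 genes that differ in coding sequence were not compared in this way. The stretches are shown so that the alternatives can be seen. Sequences are from the GENCODE M21 transcripts on GRCm38 (mm10), 5′ to 3′ on the gene's own strand, with the alternative stretch in capitals and 20 bases of the neighbouring exon sequence on each side in lower case. The Nf1 exon at chr11:79463233-79463295 on the plus strand has 63 bases, keeps the reading frame and lies within the sequence for the GTPase-activating domain of neurofibromin. The Hras exon at chr7:141191955-141192036 on the minus strand has 82 bases, shifts the frame, and has the position of the exon called IDX in human HRAS, which replaces the membrane-targeting end of the protein. The Rasa2 stretch at chr9:96631364-96631397 on the minus strand is the last 34 coding bases of the first exon, and its absence shifts the frame. The Rasal3 exon at chr17:32402436-32402507 on the minus strand has 72 bases and keeps the frame. Rasal3-207 holds it and Rasal3-201 lacks it, but their coding sequences have 3129 and 3123 bases, so they differ elsewhere as well.
Nf1: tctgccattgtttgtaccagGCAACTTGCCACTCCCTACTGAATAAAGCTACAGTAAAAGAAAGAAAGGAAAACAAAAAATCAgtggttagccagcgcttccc
Hras: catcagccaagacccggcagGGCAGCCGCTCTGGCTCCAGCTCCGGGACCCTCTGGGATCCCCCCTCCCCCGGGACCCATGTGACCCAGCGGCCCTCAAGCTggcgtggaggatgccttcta
Rasa2: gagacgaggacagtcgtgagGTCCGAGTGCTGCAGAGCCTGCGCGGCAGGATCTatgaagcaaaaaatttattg
Rasal3: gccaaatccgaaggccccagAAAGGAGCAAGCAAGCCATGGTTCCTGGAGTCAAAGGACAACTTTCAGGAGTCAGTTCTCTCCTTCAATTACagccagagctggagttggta

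The libraries held 17474991, 15303615 and 16882311 expected counts on annotated genes in libraries 1, 2 and 3. TPM is a level per transcript length that sums to the same total in each library. A gene counts as detected here where no library was under 1 TPM, which held for 11694 genes, with a median of 24.1 for their mean TPM. All 6 T cell markers, Cd4 among them, were detected, and so were Cd44 and Ccr7. Of the CD8 markers, Cd8a had at most 2 counts in a library, while Cd8b1 was detected, at 5.65, 8.1 and 10.8 TPM in libraries 1, 2 and 3. Detection was reached by 0 of 5 B cell markers and 0 of 5 myeloid markers. Of 3 NK cell markers Klrb1c and Klrk1 were detected and Ncr1 was not. The highest mean TPM of these 3 was 66.9 and their median was 8.68. Of 6 mast cell and platelet markers Kit was the one detected, at 1.3 ± 0.193 TPM (SD, n = 3). Library 1 stood apart from the other 2: a chi-square test of counts over the 3 libraries called 75.8% of 13177 genes, but 16.7% when libraries 2 and 3 were compared alone. The levels of the 9 genes are therefore given for each library, and for other genes the SD carries this difference. In bulk RNA, fewer cells that express a gene and less RNA per cell cannot be told apart.

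All 9 genes were detected, at mean levels that ran from 2.49 TPM for Nf1 to 435 TPM for Rasal3. Among the activators, Rasgrp1 was far above Sos1. Among the GTPase-activating protein genes, Rasal3 and Rasa3 made up 83.9% ± 2.54 of the summed TPM of the 5 (SD, n = 3), and Nf1 made up 0.345% ± 0.0606 (SD, n = 3). The order of the means was Rasal3, Rasgrp1, Rasa3, Rasa2, Rasa1, Nras, Hras, Sos1 and Nf1. The libraries' ranges did not overlap between Rasal3 and Rasgrp1, Rasa3 and Rasa2, Nras and Hras, or Sos1 and Nf1. They overlapped between the other neighbours in that order, which did not differ beyond their spread, although Rasgrp1 was above Rasa3, and Rasa1 above Nras, in each library. Set against all detected genes, Rasal3 was at percentile 97.0, Rasgrp1 at 92.7 and Rasa3 at 91.2, while Hras was at 46.1, Sos1 at 39.8 and Nf1 at 6.88.

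**Figure D1:**
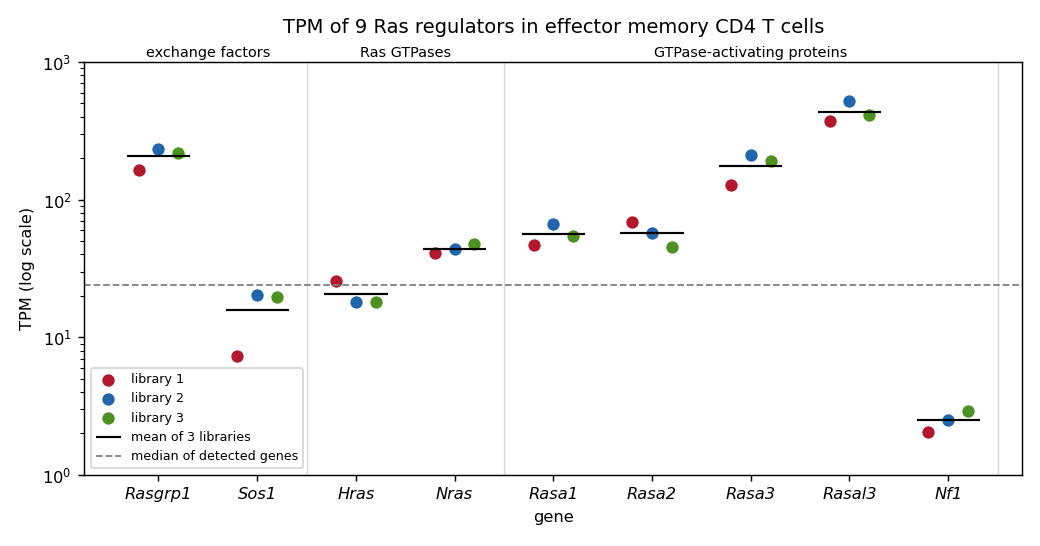
TPM (log axis) of each of the 9 genes, grouped by role, with 1 point for each library, a black line at the mean of the 3 libraries and a dashed line at the median mean TPM of detected genes, 24.1. Rasal3 lies highest and Nf1 lowest in each library, and the library 1 point of Sos1 lies well below its other points.

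Rasgrp1, the exchange factor gated by diacylglycerol, lies on chromosome 2 (117279993 to 117343001, minus strand; ENSMUSG00000027347.18). Its TPM was 165, 235 and 218 in libraries 1, 2 and 3, a mean of 206 ± 36.2 (SD, n = 3). Library 1 was lowest and libraries 2 and 3 were close to each other. Sos1, the exchange factor that is activated in turn by Ras-GTP, lies on chromosome 17 (80393751 to 80480453, minus strand; ENSMUSG00000024241.7). Its TPM was 7.36, 20.1 and 19.7 in libraries 1, 2 and 3, a mean of 15.7 ± 7.26 (SD, n = 3). The highest of its libraries was 2.74 times the lowest, the widest spread of the 9 genes in TPM. The TPM of Rasgrp1 over that of Sos1 was accordingly 22.5 in library 1, against 11.7 in library 2 and 11.1 in library 3.

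The other exchange factor genes of the pathway place both in context. Rasgrp2, which encodes a relative known chiefly as an activator of Rap, was detected at 314, 230.4 and 238 TPM in libraries 1, 2 and 3, Sos2 at 16.5, 32.8 and 28.3 TPM and Rasgrf1 at 2.81 ± 0.689 TPM (SD, n = 3). Rasgrp3 and Rasgrp4 were not detected, with mean TPM values of 0.107 and 0.243. Of the summed TPM of the 8 exchange factor genes, Rasgrp1 held 40.1% ± 6.55 and Rasgrp2 50.9% ± 9.70 (SD, n = 3). Their order depended on the library: Rasgrp2 was higher in libraries 1 and 3, and Rasgrp1 was higher in library 2, by less than 1 percentage point. Sos1 stood below Sos2 in each library, at 0.445, 0.614 and 0.697 of its TPM in libraries 1, 2 and 3.

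Nras and Hras encode closely similar GTPases that differ mainly in the lipid-modified tail. Nras lies on chromosome 3 (103058285 to 103067914, plus strand; ENSMUSG00000027852.14) and had a TPM of 40.6, 43.9 and 47.7 in libraries 1, 2 and 3, a mean of 44.1 ± 3.54 (SD, n = 3). In TPM this was the narrowest spread of the 9 genes, with the highest library at 1.17 times the lowest. In counts per library total the libraries lay further apart and library 1 was the highest, as described further on. Hras lies on chromosome 7 (141189105 to 141194005, minus strand; ENSMUSG00000025499.18) and had a TPM of 25.8, 18.1 and 18.0 in libraries 1, 2 and 3, a mean of 20.6 ± 4.45 (SD, n = 3). Its library 1 was above libraries 2 and 3, which were alike. Nras exceeded Hras in each library, by 1.58, 2.42 and 2.66 times in libraries 1, 2 and 3.

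Among the related GTPases, Rras was detected at 29.9, 15.7 and 17.3 TPM and Rras2 at 15.5, 14.6 and 12.5 TPM in libraries 1, 2 and 3. Mras was not detected, at a mean of 0.153 TPM.

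Rasal3, a GTPase-activating protein gene known for its expression in blood cells, had the highest level of the 9. It lies on chromosome 17 (32390659 to 32403583, minus strand; ENSMUSG00000052142.15) and had a TPM of 373, 520.1 and 412 in libraries 1, 2 and 3, a mean of 435 ± 76.3 (SD, n = 3). Its share of the 5 GTPase-activating protein genes moved little, at 60.4%, 60.6% and 58.5% in libraries 1, 2 and 3. An antisense gene, CT485616.1, overlaps 635 of its exon bases and had 7.07 ± 1.78 TPM (SD, n = 3). The sources used here do not say whether counting used strand, so reads of such a pair may have been shared. Rasa3, which encodes a protein that acts on both Ras and Rap, lies on chromosome 8 (13566948 to 13677603, minus strand; ENSMUSG00000031453.16). Its TPM was 127, 211 and 189.7 in libraries 1, 2 and 3, a mean of 176 ± 43.8 (SD, n = 3), with library 1 the lowest.

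Rasa1 and Rasa2 stood at nearly the same mean level. Rasa1 encodes p120 RasGAP, whose SH2 domains bind phosphorylated receptors and adaptors, and lies on chromosome 13 (85214780 to 85289130, minus strand; ENSMUSG00000021549.14). Its TPM was 47.1, 66.8 and 54.2 in libraries 1, 2 and 3, a mean of 56.1 ± 9.99 (SD, n = 3). Rasa2, a relative of Rasa3, lies on chromosome 9 (96539300 to 96631617, minus strand; ENSMUSG00000032413.12), and its TPM was 68.5, 57.5 and 45.2 in libraries 1, 2 and 3, a mean of 57.1 ± 11.7 (SD, n = 3). Rasa2 was above Rasa1 in library 1 and below it in libraries 2 and 3. Ccnh on the opposite strand shares 12 exon bases with Rasa1 and had 49.0 ± 9.76 TPM (SD, n = 3). Gm19280, a pseudogene on the strand opposite Rasa2, shares no exon bases with it and had 2.15 ± 0.950 TPM (SD, n = 3).

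Nf1 encodes neurofibromin, the large GTPase-activating protein whose loss causes neurofibromatosis in humans. It lies on chromosome 11 (79339693 to 79581612, plus strand; ENSMUSG00000020716.16), and its TPM was 2.04, 2.52 and 2.9 in libraries 1, 2 and 3, a mean of 2.49 ± 0.431 (SD, n = 3). It was the lowest of the 9 in each library, and rested on 91, 95 and 130 counts. The exact Poisson interval at 95% of the library 1 count ran from 73.3 to 112 counts; such intervals cover counting error only. Genes that lie inside Nf1 on the opposite strand were higher than Nf1 itself: Evi2a had 123.5 ± 31.4 TPM, Evi2b 70.8 ± 21.8 TPM and Evi2 4.03 ± 0.611 TPM (SD, n = 3). None of the 3 shares exon bases with Nf1.

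The other GTPase-activating protein genes were low. Rasal1 was detected at 8.83 ± 2.70 TPM and Rasa4 at 3.54 ± 0.943 TPM (SD, n = 3). Rasal2 and Dab2ip were not detected, with mean TPM values of 0.397 and 0.157. The summed TPM of the 5 GTPase-activating members was 618, 858 and 704 in libraries 1, 2 and 3, and that of Rasgrp1 and Sos1 together was 173, 255 and 238. The ratio of these sums was 3.57, 3.37 and 2.96 in libraries 1, 2 and 3, a mean of 3.30 ± 0.313 (SD, n = 3). When expected counts were not divided by length, the ratio was 2.61. The ratio covers the chosen members alone. The 6 other exchange factor genes, Rasgrp2 among them, summed to a mean of 291 TPM. The 5 other GTPase-activating protein genes summed to a mean of 13.0 TPM. These are transcript levels, and they say nothing of protein amount or activity.

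The spread between libraries was then set against counting error. Expected counts, the authors' estimates of reads per gene, were rounded to whole numbers and tested for shares equal to those of the 3 library totals. The test was Pearson's chi-square, adjusted by the Benjamini-Hochberg method over all 13177 genes that had at least 30 counts. All 9 genes were called at an adjusted p below 0.05, against 75.8% of all genes, so a call was the common case in these libraries. Library 1 was highest for 3 of the 9 (Hras, Nras and Rasa2), against 32.9% of all genes, and lowest for 6 of the 9, against 40.1% of all genes. With libraries 2 and 3 alone, 4 of the 9 were called (Rasgrp1, Rasa1, Rasa3 and Rasal3), against 16.7% of all genes. After each chi-square was divided by the median overdispersion of all genes, which was 19.9, 3 of the 9 were called (Rasgrp1, Sos1 and Rasa3), against 21.6% of all genes.

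The differences had the following sizes, as log2 ratios of counts per library total (CPM) with the standard error from counting. Sos1 differed most, with 561, 1251 and 1381 counts in libraries 1, 2 and 3. Library 1 was lower than library 2 by a log2 difference of -1.35 ± 0.07 and lower than library 3 by -1.35 ± 0.07 (adjusted p = 3.6e-94 over the 3 libraries), while libraries 2 and 3 did not differ beyond counting error (adjusted p = 0.994). Rasgrp1 had 6158, 8393 and 8866 counts, and library 1 minus library 2 was -0.64 ± 0.02. Rasa3 had 5774, 7686 and 7582 counts, and library 1 minus library 2 was -0.60 ± 0.03. In each of these 3 genes library 1 lay below both other libraries.

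Hras and Rasa2 went the other way, with library 1 above both other libraries. Hras had 286, 171 and 214 counts, with a library 1 minus library 2 difference of 0.55 ± 0.14 and an adjusted p of 0.00026 by the chi-square test over the 3 libraries. Rasa2 had 2430, 1603 and 1643 counts, with differences of 0.41 ± 0.05 from library 2 and 0.51 ± 0.05 from library 3. Rasa1 and Nf1 were lowest in library 1. Rasa1 had 1733, 1943 and 1961 counts and a library 1 minus library 2 difference of -0.36 ± 0.05. Nf1 had a library 1 minus library 3 difference of -0.56 ± 0.20, and its call over the 3 libraries (adjusted p = 0.0203) was lost with DESeq2 size factors (adjusted p = 0.125), without library 1 (adjusted p = 0.296) and without library 3 (adjusted p = 0.274).

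For Nras and Rasal3 the direction depended on the unit or the scaling. Nras had 1281, 875 and 962 counts, which put library 1 above library 2 by 0.36 ± 0.06 and above library 3 by 0.36 ± 0.06, whereas in TPM library 1 was the lowest, with log2 differences of -0.11 and -0.23. With the whole-number counts on the older M4 annotation the differences were 0.07 and 0.07 and the call was lost (adjusted p = 0.844). The mean transcript length that the authors assigned to Nras was 2984 bases in library 1, against 2297 in library 2 and 1997 in library 3, and TPM divides by that length. Rasal3 had 11402, 11748 and 11698 counts. Its library 1 minus library 3 difference was -0.09 ± 0.02 with library totals, but 0.082 with DESeq2 size factors, which shifted the median of all genes by 0.15 and 0.17 for the comparisons with libraries 2 and 3.

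**Figure D2:**
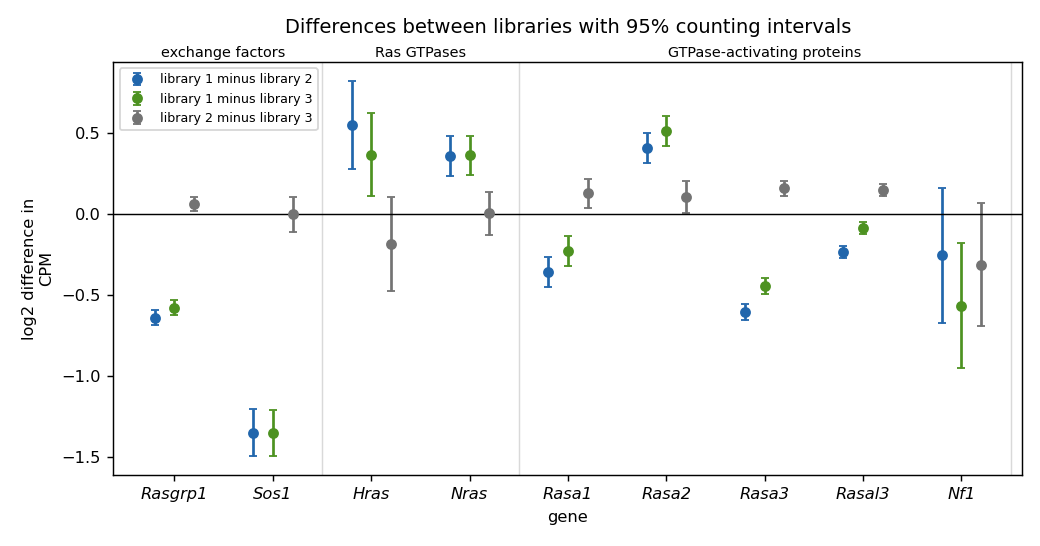
Log2 differences in CPM between pairs of libraries for each gene (y axis), with 95% intervals that cover counting error only. Library 1 lies 1.35 below both other libraries for Sos1, and above both for Hras, Nras and Rasa2. The largest difference between libraries 2 and 3 is that of Nf1, -0.31, but its interval runs from -0.69 to 0.07.

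Transcript length moved with the differences of library 1 from the other libraries, across all genes and across the 9. Over 11407 detected genes the median library 1 minus library 2 log2 difference was 0.22 for genes whose transcripts averaged under 1000 bases, 0.25 from 1000 to 2000, -0.06 from 2000 to 3000, -0.47 from 3000 to 5000 and -0.97 at 5000 and above. Sos1 had the longest transcripts of the 9, with a mean of 7001 bases, and the lowest difference, and Hras had the shortest, at 1131 bases, and the highest. Spearman's rho between length and difference was -0.83 over the 9 genes, which share their libraries, and -0.35 over all detected genes, as a description. For library 1 minus library 3 it was -0.85 and -0.27. For library 2 minus library 3 it was -0.07 over the 9 but 0.32 over all detected genes, so length also moved with that difference. The medians of that pair ran from -0.16 under 1000 bases to 0.07 from 3000 to 5000 bases. Rasa2 was an exception in position, with 3366 bases and a difference of 0.41 where the median of its length range was -0.47. The part of length in the differences was not tested.

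**Figure D3:**
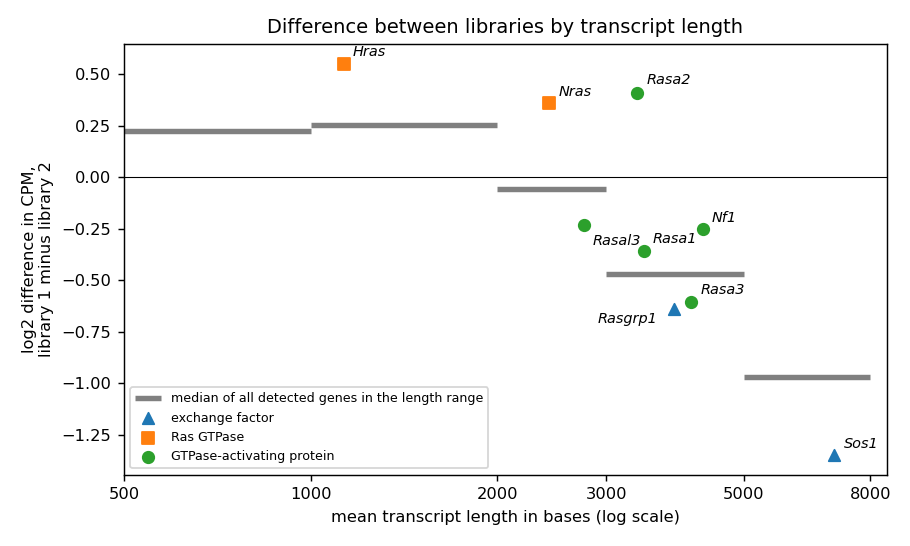
Library 1 minus library 2 log2 difference in CPM (y axis) against mean transcript length in bases (log axis) for the 9 genes, by role. Grey bars give the median of all detected genes in each length range, from 0.22 under 1000 bases to -0.97 at 5000 bases and above; these outermost ranges are open and are drawn only within the axis.

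The deposited transcript tables split each gene's level among its annotated transcripts. The 9 genes have 66 of these, of which 26 held at least 10% of their gene's TPM on average and 5 were listed at 0 in each library. By TPM the same transcript led in all libraries for 8 of the 9 genes, and the leader was annotated as protein coding for 7. The shares are the authors' estimates, and no error of the estimate was used here. A share of TPM gives short transcripts more weight than a share of expected counts does, and the count shares of the leading transcripts are given as well.

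The 2 exchange factor genes differed in how much of their level fell on coding transcripts, though by TPM only a little in library 1. By TPM the coding transcripts of Rasgrp1 together held 57.0%, 71.3% and 69.0% in libraries 1, 2 and 3. Rasgrp1-201, protein coding, held 53.7% ± 7.41 of Rasgrp1, the retained-intron transcript Rasgrp1-202 held 34.2% ± 7.68, and Rasgrp1-207 held 12.1% ± 6.46 (SD, n = 3). By expected count these shares were 73.1% ± 7.37, 11.1% ± 3.46 and 15.9% ± 7.98 (SD, n = 3). Rasgrp1-201 and Rasgrp1-207 have coding sequences of the same length, 2385 bases. By TPM, Sos1 was split between the coding Sos1-201, at 55.0%, 52.0% and 43.6% in libraries 1, 2 and 3, and the retained-intron Sos1-202, at 45.0%, 48.0% and 56.4%. By TPM the retained-intron form thus led in library 3, and Sos1 was the 1 gene of the 9 whose leader changed between libraries. By expected count Sos1-201 led in each library, at 65.1%, 62.3% and 54.1% in libraries 1, 2 and 3.

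For Hras, the coding transcript Hras-202 held 49.5% ± 4.27 of the TPM and Hras-204, annotated as a target of nonsense-mediated decay, held 24.4% ± 9.33 (SD, n = 3), and by expected count 52.7% ± 4.79 and 24.3% ± 9.55. Hras-203, the coding form with the 82-base exon printed above, was listed at 12.7% in library 1, 0% in library 2 and 20.1% in library 3. Over all transcripts that hold or skip that exon, it was held by 19.1%, 3.77% and 25.7% of the TPM in libraries 1, 2 and 3. The estimated reads on the holding transcripts were few, at 54.0, 8.85 and 55.5. A further decay target, Hras-206, averaged 10% ± 8.66 (SD, n = 3) and was listed at 0 in library 3.

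Nras-201, the coding form, held 37.5% ± 10.2 of Nras, Nras-203 held 25.8% ± 7.90 and Nras-208 held 12.2% ± 12.9 (SD, n = 3). By expected count these shares were 69.2% ± 4.01, 20.1% ± 2.08 and 4.30% ± 4.50 (SD, n = 3). Nras-203 is annotated as a target of nonsense-mediated decay, although its annotated coding sequence is as long as that of Nras-201, at 567 bases. Nras-208 is protein coding with a coding sequence of the same length, and its share was 2.25%, 26.8% and 7.44% in libraries 1, 2 and 3, so it was high in library 2. Nras-201 has 4470 bases and Nras-208 has 831. Nras-206, of 276 bases, was listed at 22.65% of the TPM in library 3, on 25.39 estimated reads, and at 0 in libraries 1 and 2. The mean length given above depends on the mix of all transcripts of the gene, so in library 3 it leans partly on these few reads.

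Rasa3 and Rasa1 were the most uniform of the GTPase-activating protein genes. Rasa3-201 held 90.5% ± 5.95 of Rasa3, and Rasa1-201 held 70.5% ± 2.05 of Rasa1 (SD, n = 3), both protein coding, and by expected count 96.9% ± 1.93 and 93.7% ± 0.599. The retained-intron Rasa1-204 averaged 10.6% ± 4.27 of the TPM but 1.94% ± 0.801 of the expected count (SD, n = 3). Rasal3 was spread over more forms. The coding Rasal3-201 held 45.9%, 32.1% and 39.5% in libraries 1, 2 and 3, and the retained-intron transcripts Rasal3-209, Rasal3-205 and Rasal3-208 averaged 14.2% ± 3.05, 10.8% ± 1.40 and 10.4% ± 2.98 (SD, n = 3). By expected count Rasal3-201 held 52.2% ± 6.45, Rasal3-209 held 20.1% ± 5.11, Rasal3-205 held 2.86% ± 0.538 and Rasal3-208 held 1.72% ± 0.597 (SD, n = 3). The coding Rasal3-207, which holds the 72-base exon printed above, was steady at 12.7%, 12.2% and 13.4%. Among Rasal3 transcripts that hold or skip that exon, 16.8%, 18.6% and 18.6% of the TPM held it in libraries 1, 2 and 3, on 1638 to 1843 estimated reads.

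Rasa2 was led by a transcript that is not annotated to give the full protein. Rasa2-202, annotated as a target of nonsense-mediated decay, lacks the 34 bases printed above and has an annotated coding sequence of 159 bases, against 2541 in Rasa2-201. It held 62.1%, 55.9% and 55.2% of the TPM in libraries 1, 2 and 3, and the coding Rasa2-201 held 33.6%, 30.04% and 36.7%. By expected count the order was the reverse, with Rasa2-201 at 58.0% ± 2.67 and Rasa2-202 at 33.8% ± 3.06 (SD, n = 3). The transcripts have 5813 and 1987 bases.

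Nf1 also changed its leader with the unit. Nf1-207, a processed transcript of 721 bases, held 36.3% ± 11.0 of the TPM on 5.17 to 7 estimated reads in a library, and 5.77% ± 1.86 of the expected count (SD, n = 3). By expected count the leader was the full coding form Nf1-201, of 11917 bases, at 49.5% ± 14.9, and its share of the TPM was 17.6% ± 4.96 (SD, n = 3). The retained-intron Nf1-205 and the coding Nf1-206 averaged 19.8% ± 3.30 and 10.2% ± 8.37 of the TPM (SD, n = 3). The 63-base exon printed above was held by all of the TPM on transcripts that hold or skip it in library 1, by 95.7% in library 2 and by 39.8% in library 3. The estimated reads behind this were 58.8 on holding and 0 on skipping transcripts in library 1, 46.6 and 1.63 in library 2, and 45.4 and 28.9 in library 3. These reads are assigned over the whole transcripts and not counted on the exon, so the difference between libraries was not tested.

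Transcripts annotated as protein coding held a mean of 90.5% of the TPM for Rasa3, 72.6% for Rasa1, 65.8% for Rasgrp1, 61.9% for each of Hras and Nras, 53.0% for Rasal3, 50.2% for Sos1, 38.1% for Nf1 and 33.5% for Rasa2. Over 8168 detected coding genes with at least 2 classes of transcript, the median was 78.6%, the quartiles were 56.3% and 92.4%, and 20.2% of genes were under 50%. Rasa3 was thus above that median and the other 8 below it, with Nf1 and Rasa2 under 50%. By expected count the shares were higher for each of the 9, with the lowest, Rasa2, at 58.0% ± 2.67 (SD, n = 3).

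**Figure D4:**
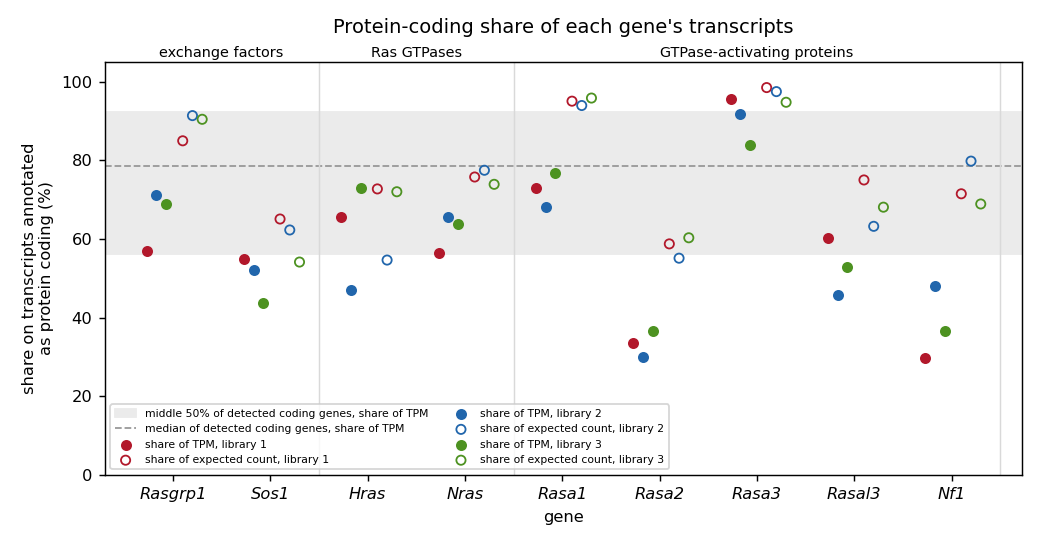
Share of each gene's level on transcripts annotated as protein coding (y axis, percent), by TPM (filled) and by expected count (open), 1 point for each library. The grey band spans the quartiles of detected coding genes, 56.3% to 92.4%, and the dashed line their median, 78.6%; Rasa2, Nf1 and Sos1 lie below the band by TPM in each library.

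The genes that connect the antigen receptor to these activators were abundant. Of 13 genes for adaptors and lipid enzymes, 12 were detected and their list had a median of 217 TPM. The highest means were those of Lat, the scaffold that gathers the signalling complex, Dgka, which encodes a kinase that removes diacylglycerol, and Lcp2, which encodes the adaptor SLP-76. Lat had 1424, 509 and 541 TPM in libraries 1, 2 and 3, Dgka had 247, 553 and 509, and Lcp2 had 475, 357 and 349. Their order thus depended on the library. Gab2 was not detected, with 1 count in all. Of the 12 tested, 11 were called between libraries, against 75.8% of all genes.

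Of 5 Sprouty and Spred inhibitor genes 3 were detected. Spry1, an inhibitor of receptor signalling to Ras, stood at 224 ± 10.6 TPM, Spred2 at 6.22 ± 3.16 TPM and Spred1 at 2.94 ± 0.826 TPM (SD, n = 3). Spry2 and Spred3 were not detected, with mean TPM values of 0.237 and 0.0267.

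Downstream of Ras, all 14 genes of the Raf-MEK-ERK list were detected, with a median of 71.3 TPM. Araf, which encodes a kinase that binds active Ras, was among its 3 highest means at 152 ± 16.5 TPM (SD, n = 3), and 11 of the 14 were called between libraries. All 8 genes for enzymes that process or carry Ras were detected, with the highest means for Golga7, a subunit of the Ras palmitoyltransferase, at 117 ± 37.8 TPM, Fnta, a farnesyltransferase subunit, at 79.3 ± 31.0 TPM and Lypla1, a depalmitoylating enzyme, at 77.3 ± 6.09 TPM (SD, n = 3). Of 10 other effector genes 8 were detected, with the highest means for Rassf5 at 202 ± 22.9 TPM, Pik3cd, a catalytic subunit of PI3-kinase, at 186 ± 113 TPM and Rassf1 at 144 ± 16.9 TPM (SD, n = 3). Pik3cd was above Rassf5 in libraries 2 and 3, and in library 1 it was at 56.5 TPM, below both. Rgl1 and Rin1 were not detected, with mean TPM values of 0.127 and 0.117. Over all 65 pathway genes outside the 9, 54 were detected and 49 of the 54 tested were called between libraries, 22 with library 1 highest and 27 with library 1 lowest, against 75.8%, 32.9% and 40.1% of all genes.

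**Figure D5:**
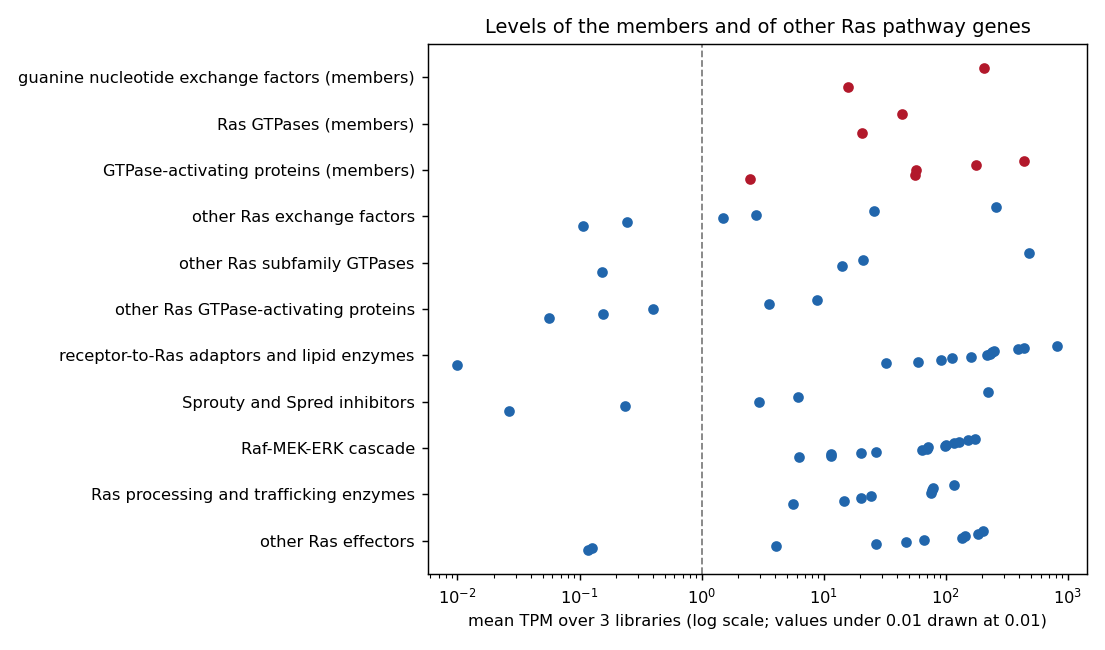
Mean TPM over the 3 libraries (log axis) of the 9 genes (red) and of 65 other Ras pathway genes (blue), 1 point for each gene by list. The dashed line marks 1 TPM; each of the 9 lies above it, between 2.49 and 435 TPM, and 11 pathway genes lie below it.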

How the data were processed

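PolyA RNA-seq libraries of 1 biosample were used, as 3 technical replicates. Per the file headers and the text deposited with them, the gene and transcript tables use mm10 with GENCODE M21. The authors' expected counts are estimated reads, the deposited TPM and FPKM values are scaled within each library by the authors, and the deposited percent values state how a gene's TPM divides among its transcripts. A headerless table deposited by the authors holds whole-number counts on GENCODE M4. The sources used here do not name the aligner or quantifier or the use of strand. The 26345 rows without an Ensembl gene ID held 0.304%, 0.298% and 0.226% of expected counts in libraries 1, 2 and 3 and were left out.

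Levels are means ± SD of the deposited TPM. Expected counts were rounded, genes with at least 30 in total were tested with Pearson's chi-square test against library totals, and p-values were adjusted by Benjamini-Hochberg over all of them (threshold 0.05). The test compares these libraries, not conditions; with 1 group no edgeR or DESeq2 test was run. Overdispersion is the median chi-square over that expected from counting. The test was also tried on simulated counts for 13177 genes. Sets of 50 genes had their library 1 level altered 1.2-, 1.5-, 2- or 4-fold. Calls were made for 48.0%, 74.0%, 90.0% and 100% of these sets in turn, and for 0.0771% of the 12977 unaltered genes. The simulated counts did not carry the median overdispersion of 19.9 found in these libraries. The simulated rates therefore do not give the power or false-call rate of the test here.

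The members and gene lists were chosen with earlier results of these data known. Named were each member, the 3 highest and each undetected gene of every other pathway list, each member's leading transcript and others with a mean share of at least 10%, and overlapping genes with a mean of at least 1 TPM; a few genes under this rule are not reported here. Alternatives were other scalings (edgeR 4.0.16 TMM, DESeq2 1.42.0 size factors), count minimums, detection levels, units, the M4 counts and leaving out each library. Python 3.11.15, numpy 2.4.6, scipy 1.17.1, pandas 2.3.3, matplotlib 3.10.9 and R 4.3.3 were used.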

Additional observations from a re-analysis of the deposited data

How the results depend on the processing

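All 9 genes stayed detected and the count of detected genes among the 74 members and pathway genes was 63, with 63 at a level of 0.5 TPM and 53 at 5 TPM. The count of members called between libraries was 9, and 8 or 9 under each other scaling, count minimum or annotation tried, but 3 after division by the overdispersion, and between 4 and 9 when 1 library was left out, with the 4 without library 1. For the pathway genes the count was 49, and 18 after division by the overdispersion, and between 8 and 49 when 1 library was left out, with the 8 without library 1. Over all tested genes the share called was 75.8%, and between 35.8% and 86.5% under the other scalings, count minimums and annotation. It was 21.6% after division by the overdispersion, 16.7% without library 1, 74.6% without library 2 and 73.5% without library 3. The ratio of the summed level of the 5 GTPase-activating members to that of Rasgrp1 and Sos1 was 3.30. It was 2.61 from expected counts not divided by length, whose construction ignores length. Scalings and units of the log2 differences were added after the data were seen. Nras reversed in TPM, to -0.11 for library 1 minus library 2 and -0.23 for library 1 minus library 3. Rasal3, library 1 minus library 3, reversed to 0.082 with DESeq2 size factors and to 0.047 with the M4 counts; the cause was not tested. No paired analysis was possible because the samples form 1 group. Depth limits Nf1, with 91 to 130 counts, and Hras, with 171 to 286, and their transcript shares rest on fewer.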

Other observations

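The whole-number counts on the M4 annotation summed to 29.2%, 33.0% and 31.3% of the expected counts in libraries 1, 2 and 3, and the 9 genes kept unequal parts of theirs. Rasa1 kept 74.7%, 74.9% and 74.0% and Sos1 kept 72.4%, 71.2% and 73.1%, whereas Nras kept 18.1%, 24.9% and 23.7% and Rasgrp1 kept 35.2%, 32.7% and 32.2%. Over all genes with 300 to 3000 expected counts the median was 52.3%, 53.1% and 52.0%, and with 3000 to 30000 it was 28.8%, 31.5% and 30.3%. Nras, with 875 to 1281 expected counts, thus kept less than the median gene of its range in each library, and Sos1 and Rasa1 kept more. Rasgrp1, with 6158 to 8866 expected counts, also kept more than the median gene of its own, higher range in each library.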
